A study of Mus musculus with 8 samples.

Results

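Banp and Gm45353 lie in the same stretch of mouse chromosome 8, and both stood higher in KPC pancreatic tumors grown in C3-/- hosts than in tumors grown in WT hosts. They were examined here with 7 other genes of it, Slc7a5, Klhdc4, Zc3h18, Cyba, Mvd, Rnf166 and Piezo1, to ask whether the neighbors shared that difference. The set holds 9 of the 29968 genes of the count table, and all 9 were among the 16610 genes with enough reads to be tested. Banp and Gm45353 were chosen by their own difference between these hosts, as 2 of the 16 genes that passed an adjusted p of 0.05 in DESeq2, so their values are given as a description with no test. The 7 neighbors are some of the genes between 121.5 and 123.5 Mb of the mm39 assembly (also named GRCm39), named with the pair when earlier results were known, and were tested. The other genes of that window are described after them.

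The tumors came from 12-week-old male mice whose pancreas had been injected with 250000 KPC FC1245 cells in 50 μL of saline. KPC cells are a mouse pancreatic cancer line from the tumor of a genetically engineered mouse with mutant Trp53 and Pdx-1-Cre. All hosts were of the C57BL/6J strain, 4 of them WT and 4 without the complement gene C3 (C3-/-), with no further treatment named for either group. Tumors were taken when WT hosts reached the mandated endpoint, at day 14. The injected cells were the same in both groups and carry C3 themselves, so a tumor of a C3-/- host is a C3-null host around C3-competent cancer cells, and each tumor is a bulk mixture in which fewer cells of a type and less RNA per cell cannot be told apart.

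BANP is a nuclear protein that binds CG-rich elements in promoters and also associates with p53. Gm45353 is annotated as a long noncoding RNA gene. Of the neighbors, Slc7a5 encodes the large neutral amino acid transporter LAT1, Mvd the decarboxylase that makes isopentenyl diphosphate in the mevalonate pathway, and Cyba the p22phox subunit of the NADPH oxidase. Zc3h18 encodes a zinc finger protein that ties the nuclear RNA cap-binding complex to the RNA exosome, Rnf166 a RING-type ubiquitin ligase, Piezo1 a channel opened by membrane stretch and Klhdc4 a protein with kelch repeats. Genes that lie side by side can be transcribed together when they share regulatory elements or when transcription runs on from one gene into the next.

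In the order of the chromosome, the members were Klhdc4 (chr8:122523052-122556308), Slc7a5 (chr8:122607889-122634433), Banp (chr8:122676489-122755997), Gm45353 (chr8:123065910-123069839), Zc3h18 (chr8:123103348-123144099), Cyba (chr8:123151515-123159669), Mvd (chr8:123160340-123170161), Rnf166 (chr8:123192886-123202803) and Piezo1 (chr8:123208437-123278068). Together they spanned 755 kb. Banp, Gm45353 and Zc3h18 lie on the plus strand and the other members on the minus strand. Slc7a5 ended 42.1 kb before the start of Banp, and Gm45353 began 309.9 kb after the end of Banp and ended 33.5 kb before Zc3h18. Banp and Gm45353 are thus not adjacent, and Zfp469, Zfpm1 and a noncoding gene with too few reads to be tested lie between them.

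The Gm45353 transcript is short, and its sequence is shown because it bears on which reads can be assigned to it. GENCODE vM39 gives it 3 exons of 85, 146 and 21 bases, printed here 5′ to 3′ with exon 2 in capitals.
Gm45353 (chr8:123065910-123069839, GRCm39, plus strand): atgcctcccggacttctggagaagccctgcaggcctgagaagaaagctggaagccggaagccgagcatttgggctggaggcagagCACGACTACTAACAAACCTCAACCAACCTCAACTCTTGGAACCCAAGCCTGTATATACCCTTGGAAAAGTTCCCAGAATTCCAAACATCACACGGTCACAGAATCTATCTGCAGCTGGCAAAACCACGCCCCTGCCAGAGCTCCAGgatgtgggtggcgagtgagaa
All 146 bases of exon 2 lie inside an exon of Gm64047, an antisense gene model of GENCODE vM39 on the minus strand that is not among the genes analyzed here. Exon 2 also matched 2286 other places of the assembly in a blastn search (E at most 1e-05), 1878 of them over at least 80 bases, with a median identity of 78.4% and a highest identity of 90.1%. Exon 1 matched its own place alone, and exon 3 is too short to reach that limit. Whether the libraries kept strand is not stated, since the labels name both a directional and a non-directional protocol. Reads that lie within exon 2 of Gm45353 therefore cannot be told apart from those of its antisense partner, while exons 1 and 3 share no bases with it.

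The tumors yielded 13.3 to 23.4 M counts. C3, the gene deleted in the hosts, stood at 210, 426, 226 and 324 CPM in WT tumors (CPM divides a gene's counts by the tumor's total, adjusted with TMM factors, so it compares a gene between tumors) and at 109, 134, 100 and 101 CPM in C3-/- tumors, so the groups did not overlap. Epithelial keratin 8 was abundant in all 8 tumors (1802 to 3453 CPM). Other tissues were unevenly present: the summed level of 4 skeletal muscle markers was 0.301 to 1.055 CPM in WT replicates 2 and 3 and C3-/- replicate 2 and 1085 to 2677 CPM in the other 5 tumors. The summed level of 5 acinar markers was 153 to 400.5 CPM in WT tumors, below all of these in C3-/- replicates 2, 3 and 4 (38.3 to 64.5 CPM) and above them in C3-/- replicate 1 (1376 CPM). The leukocyte marker Ptprc stood at 20.1 to 22.3 CPM in WT tumors and at 23.3 to 44.0 CPM in C3-/- tumors, so that its groups did not overlap, as those of Banp and Gm45353 did not, while the summed levels of the macrophage and neutrophil markers overlapped between groups. The part of these cell types in the results was not tested. C3-/- replicate 1 and WT replicate 3 stood apart in another way that touches most neighbors and is described with them.

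Banp stood at 34.8, 56.1, 29.3 and 29.0 CPM in the WT tumors and at 68.3, 71.0, 80.4 and 64.6 CPM in the C3-/- tumors. The lowest C3-/- tumor lay above the highest WT tumor, and WT replicate 2 was the highest of its group. The group means were 37.3 ± 12.8 and 71.1 ± 6.74 CPM (SD, n = 4 each), and edgeR gave a log2 fold change of 0.93 ± 0.21 (SE). In FPKM, which also divides by the length of the gene model, the mean level went from 5.58 ± 1.92 to 10.6 ± 1.04.

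Gm45353 stood at 2.05, 0.980, 1.81 and 0.723 CPM in the WT tumors and at 4.59, 3.92, 5.04 and 4.70 CPM in the C3-/- tumors. These values rest on few reads, 33, 13, 24 and 17 counts in WT tumors and 98, 70, 80 and 86 counts in C3-/- tumors. The groups did not overlap, with means of 1.39 ± 0.639 and 4.56 ± 0.470 CPM (SD, n = 4 each) and a log2 fold change of 1.72 ± 0.35 (SE). Per length, the mean level went from 5.48 ± 2.54 to 17.9 ± 1.89 FPKM, which for a model of 252 bases is a division by few bases. The share of all tested genes in which the C3-/- tumors all lay above the WT tumors was 2.28%, and since both genes were chosen by this contrast nothing is read from their place in it.

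**Figure D1:**
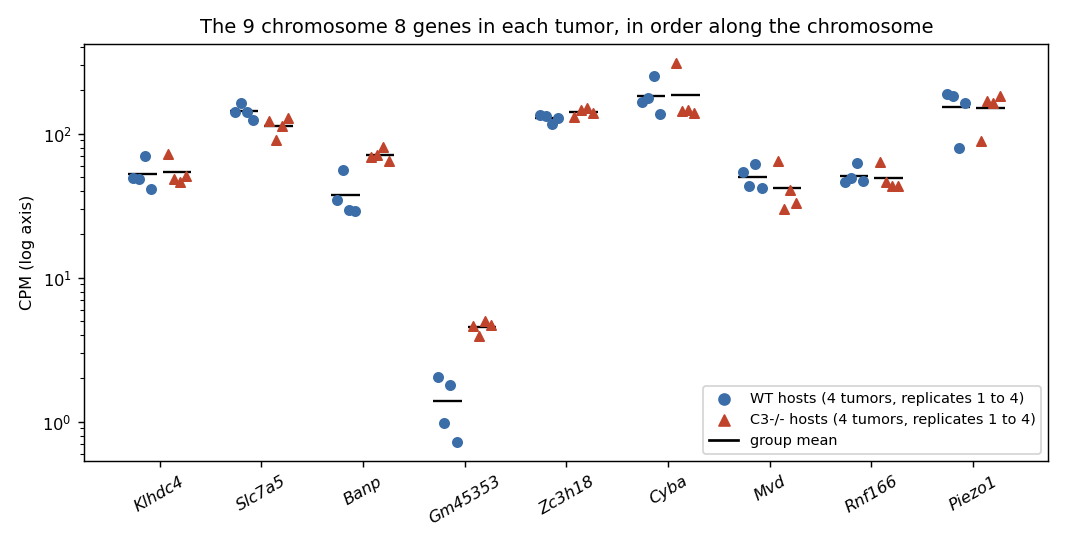
CPM of the 9 genes (y axis, log scale) in the 4 WT tumors (circles) and the 4 C3-/- tumors (triangles), each group drawn left to right in replicate order, with a line at the group mean; genes are in order along the chromosome (x axis). Banp and Gm45353 separate by group, while the groups of each of the other 7 genes overlap.

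None of the 7 neighbors separated by group. Over all tested genes, 2.28% had all C3-/- tumors above all WT tumors and 1.45% had all of them below. With shares this low, nothing about the 7 is read from that count. In the edgeR quasi-likelihood fit over all genes none passed an adjusted p of 0.05, where the background was 0% of 16610 genes (0 called, with 848 genes or 5.11% at an unadjusted p below 0.05). C3 did not pass in that fit either (log2 fold change -1.42, edgeR adjusted p = 0.933), while DESeq2 gave it an adjusted p of 1.2e-05. As no gene passed in the edgeR fit, missing its threshold does not set the neighbors apart from other genes. DESeq2 called 16 of the 18864 genes to which it gave an adjusted p, or 0.0848%, and limma-voom called 0 genes (853 at an unadjusted p below 0.05), and neither called a neighbor. The log2 fold changes of the neighbors ran from -0.33 to 0.14 with a median of -0.02, 3 of them above 0 and 4 below, beside a median of 0.00 and 50.0% above 0 over all tested genes. One neighbor, Slc7a5, had an unadjusted p below 0.05, on the lower side, where the background was 2.07%. The upper ends of the 7 95% intervals ran from -0.02 to 0.65. A difference between genes in their fold change was not itself tested.

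Slc7a5, 42.1 kb upstream of Banp, was the neighbor with the largest difference, and it pointed the other way from Banp. It stood at 141, 163, 141 and 125 CPM in the WT tumors and at 123, 90.7, 113 and 128 CPM in the C3-/- tumors. The groups overlapped through WT replicate 4 and C3-/- replicate 4, and C3-/- replicate 2 was the lowest. The log2 fold change was -0.33 (95% interval -0.64 to -0.02), with an unadjusted p of 0.0385 and an edgeR adjusted p of 0.971. An exact two-sided permutation test of its log2(CPM + 0.1) values gave p = 0.0571, where 0.0286 is the smallest p that 4 against 4 tumors allow. The unadjusted p ran from 0.0294 to 0.109 when single tumors were left out.

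Klhdc4, on the far side of Slc7a5, stood at 49.3, 48.4, 70.2 and 41.4 CPM in the WT tumors and at 72.4, 48.1, 46.3 and 51.0 CPM in the C3-/- tumors. Its highest values were those of WT replicate 3 and C3-/- replicate 1, one in each group. Its log2 fold change was 0.06 (95% interval -0.38 to 0.50, edgeR adjusted p = 0.999).

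Zc3h18, the first member after Gm45353, had the narrowest interval of the 7. It stood at 136, 133, 117 and 129 CPM in the WT tumors and at 131, 146, 151 and 140 CPM in the C3-/- tumors, with 1 C3-/- tumor inside the WT range. Between groups it differed by 0.14 on the log2 scale (95% interval -0.09 to 0.37, edgeR adjusted p = 0.999).

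Cyba, the most abundant member per length, stood at 164, 178, 251 and 138 CPM in the WT tumors and at 309, 144, 145 and 139 CPM in the C3-/- tumors. C3-/- replicate 1 lay far above its group mates, and WT replicate 3 was the highest of its own group. The log2 fold change was 0.01 (95% interval -0.62 to 0.65, edgeR adjusted p = 0.999), an interval that leaves room for a difference in either direction.

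Mvd, the next gene after Cyba, stood at 54.5, 43.4, 61.2 and 41.9 CPM in the WT tumors and at 64.6, 29.7, 40.5 and 33.1 CPM in the C3-/- tumors. C3-/- replicates 2, 3 and 4 lay below all WT tumors, and C3-/- replicate 1 lay above them all. The log2 fold change was -0.26 (95% interval -0.80 to 0.28, edgeR adjusted p = 0.999). With single tumors left out it ran from -0.55 without C3-/- replicate 1 (unadjusted p = 0.0117, edgeR adjusted p = 0.407, in a fit where 1802 genes had an unadjusted p below 0.05 in place of 848) to -0.12 without C3-/- replicate 2 (unadjusted p = 0.62).

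Rnf166 stood at 46.3, 48.9, 62.5 and 46.6 CPM in the WT tumors and at 63.1, 46.3, 43.2 and 43.5 CPM in the C3-/- tumors. WT replicate 3 and C3-/- replicate 1 were again the highest of their groups, and the log2 fold change was -0.06 (95% interval -0.42 to 0.30, edgeR adjusted p = 0.999).

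Piezo1 stood at 188, 183, 78.9 and 162 CPM in the WT tumors and at 89.2, 169, 164 and 182 CPM in the C3-/- tumors. Here the same pair, WT replicate 3 and C3-/- replicate 1, lay far below the other 6 tumors. Its log2 fold change was -0.02 (95% interval -0.66 to 0.62, edgeR adjusted p = 0.999). Over the 6 neighbors other than Slc7a5 the exact permutation p ran from 0.0857 for Zc3h18 to 0.943 for Cyba, and none of the 7 such tests passed 0.05.

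Per length, the order of the members in WT tumors was Cyba (174 ± 46.0 FPKM, SD, n = 4), Slc7a5 (38.2 ± 4.25), Mvd (26.8 ± 4.96), Rnf166 (25.5 ± 3.79), Piezo1 (15.3 ± 5.10), Klhdc4 and Zc3h18 (nearly equal, 13.9 ± 0.930 for Zc3h18), Banp (5.58 ± 1.92) and Gm45353 (5.48 ± 2.54). Cyba stood clear of the rest, whereas Mvd and Rnf166, then Piezo1, Klhdc4 and Zc3h18, then Banp and Gm45353, lay within 1 SD of each other. In C3-/- tumors the order began with Cyba (175 ± 79.3 FPKM), Slc7a5 (30.3 ± 4.38), Rnf166 (24.4 ± 4.71) and Mvd (22.3 ± 8.38), and Banp (10.6 ± 1.04) came last. Gm45353, at 17.9 ± 1.89 FPKM, stood above Zc3h18 (15.3 ± 0.933), Piezo1 (15.0 ± 4.16) and Klhdc4 (14.5 ± 3.23) there, with SDs that overlapped.

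**Figure D2:**
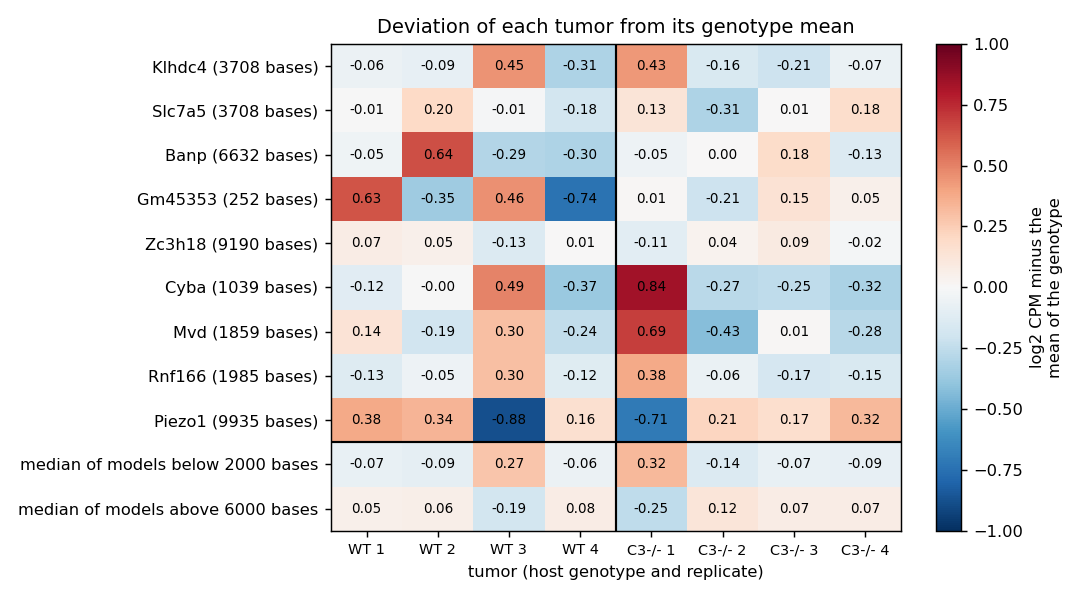
Each cell gives log2 CPM minus the mean of the tumor's genotype, for the 9 genes (rows, with the length of the gene model) and for the median gene with a model below 2000 or above 6000 bases (bottom rows), in 8 tumors (columns). WT replicate 3 and C3-/- replicate 1 are high for Klhdc4, Cyba, Mvd and Rnf166 and low for Piezo1, as the short-model and long-model medians are.

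The spread within the groups followed a pattern of these 2 tumors that was not limited to chromosome 8. Over the 3392 tested genes with a model below 2000 bases, the median deviation from the genotype mean was 0.27 in WT replicate 3 and 0.32 in C3-/- replicate 1 on the log2 scale, and between -0.14 and -0.06 in the other 6 tumors. Over the 4572 genes with a model above 6000 bases it was -0.19 and -0.25 in these 2 tumors and between 0.05 and 0.12 in the others. As a description over 8 tumors, the difference between the short-model and long-model medians followed the deviations of Rnf166 (Pearson r = 0.96), Cyba (r = 0.96), Klhdc4 (r = 0.94) and Mvd (r = 0.90) and ran against those of Piezo1 (r = -0.96) and Zc3h18 (r = -0.87). Slc7a5 (r = 0.30), Gm45353 (r = 0.33) and Banp (r = -0.32) followed it less closely. The part of this pattern in the comparisons was not tested.

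Without both of these tumors, a choice made after seeing the data, the SE of the log2 fold change went from 0.29 to 0.10 for Piezo1, from 0.28 to 0.11 for Cyba and from 0.20 to 0.11 for Klhdc4. The values were then -0.06 for Piezo1 (95% interval -0.28 to 0.16), -0.18 for Cyba (-0.43 to 0.07) and 0.05 for Klhdc4 (-0.19 to 0.30). Rnf166 stood at -0.10 (-0.30 to 0.10), Zc3h18 at 0.12 (-0.06 to 0.30), Slc7a5 at -0.39 (-0.74 to -0.03) and Mvd at -0.45 (-0.81 to -0.09), and no neighbor passed an adjusted p of 0.05. Banp stood at 0.84 ± 0.23 (SE) and Gm45353 at 1.86 ± 0.41, given as a description.

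Banp and Gm45353 did not vary together within the groups. The Pearson r of their deviations from the genotype means was -0.16 over 8 tumors, given as a description, and the WT tumor that was highest for Banp, replicate 2, was the second lowest for Gm45353. Of the neighbors, Zc3h18 (r = 0.52) was most like Banp, and Mvd (r = 0.50) and Klhdc4 (r = 0.49) were most like Gm45353. Over all tested genes the 3 most like Banp were Nrn1 (r = 0.98, chromosome 13), Vcam1 (r = 0.98, chromosome 3) and Itga3 (r = 0.98, chromosome 11), and the 3 most like Gm45353 were Pla2g10 (r = 0.96, chromosome 16), Adam21 (r = 0.95, chromosome 12) and Opn3 (r = 0.94, chromosome 1). These are the highest values among all tested genes, each over 8 tumors, and all points share their libraries.

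The window of 121.5 to 123.5 Mb held 56 genes of the table, of which 33 were tested and 23 had too few reads, among them Gm27011 and the microRNA gene Mir7237, which overlap Banp. Of the 31 log2 fold changes other than those of Banp and Gm45353, 15 were above 0 and the median was -0.02. None of the 31 passed an adjusted p of 0.05 in edgeR or DESeq2.

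**Figure D3:**
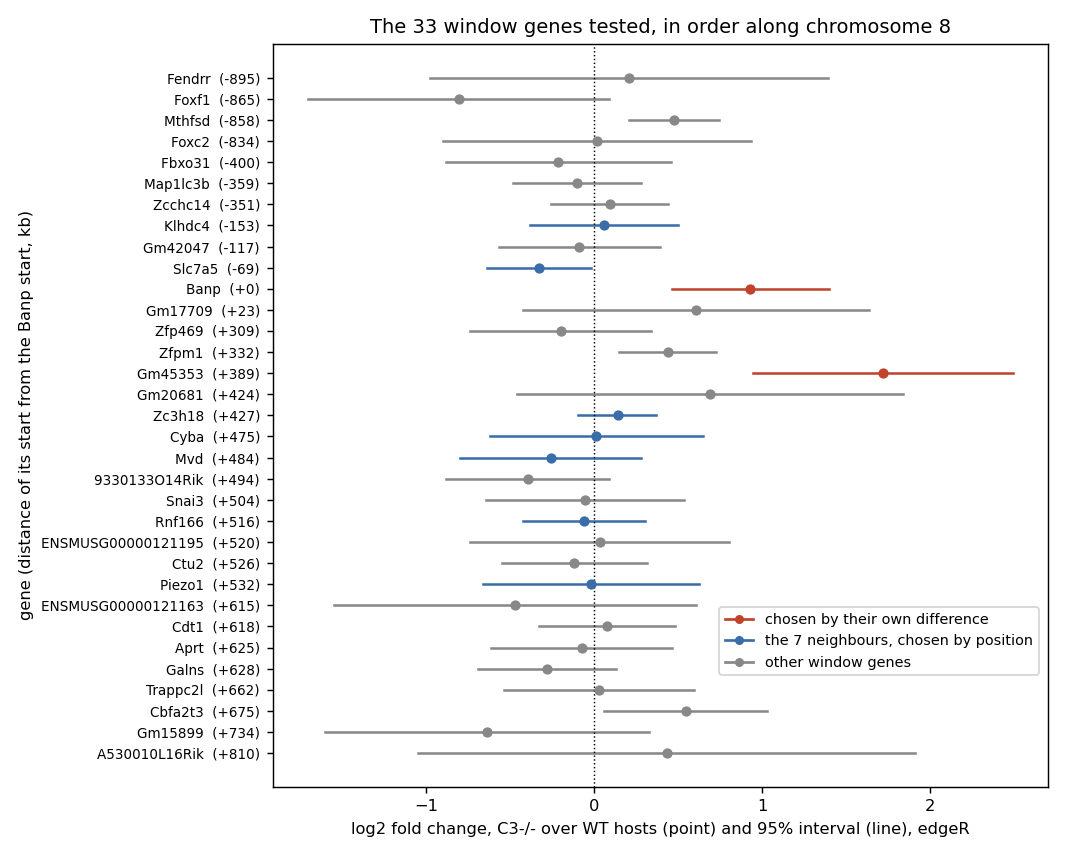
Log2 fold change of C3-/- over WT tumors with its 95% interval (x axis) for the 33 tested genes of the window, in order along the chromosome, with the distance of each start from the start of Banp in kb (y axis). Points fall on both sides of 0 along the whole window. Gm45353 and Banp lie furthest to the right, but they were chosen by this contrast, so their place and their intervals are a description and not a test.

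Of the 31 other window genes, 4 had an unadjusted p below 0.05, or 12.9%, beside 5.11% of all tested genes. They were Slc7a5 on the lower side and Mthfsd, Zfpm1 and Cbfa2t3 on the higher side, where the background was 3.03%. In the flanks of the window, 1 Mb on each side, 1 of 39 tested genes (2.56%) did so, Cdk10 (log2 fold change 0.40, unadjusted p = 0.0236), a gene named after its value was seen. Of the 31 genes, 2 (6.45%), Zfpm1 and Mthfsd, had all C3-/- tumors above all WT tumors, where the background was 2.28%, and 0 had all C3-/- tumors below them, where it was 1.45%.

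Zfpm1, which encodes the GATA cofactor FOG1, is the gene just before Gm45353 on the same strand. Its model ended 1919 bases before Gm45353 in the deposited coordinates and 885 bases before it in GENCODE vM39. Zfpm1 stood at 125, 147, 131 and 114 CPM in the WT tumors and at 202, 179, 170 and 150 CPM in the C3-/- tumors, so that the groups did not overlap. Its difference of 0.44 ± 0.13 (log2, SE) had an unadjusted p of 0.00703 and an edgeR adjusted p of 0.936. For each 100 counts of Zfpm1 there were 1.64, 0.667, 1.38 and 0.637 counts of Gm45353 in the WT tumors and 2.27, 2.20, 2.97 and 3.14 in the C3-/- tumors, values that follow from the choice of Gm45353 and are a description. The within-group deviations of the pair had r = 0.07.

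Mthfsd, a gene with a methenyltetrahydrofolate synthetase domain whose model begins 858 kb before that of Banp, stood at 37.1, 37.8, 39.4 and 34.8 CPM in the WT tumors and at 55.3, 57.5, 47.1 and 47.2 CPM in the C3-/- tumors. The groups did not overlap, with a difference of 0.48 ± 0.12 (log2, SE) at an unadjusted p of 0.0027 and an edgeR adjusted p of 0.933. Cbfa2t3, a transcriptional corepressor gene whose model begins 675 kb after that of Banp, had lower levels, 6.63 to 9.33 CPM in WT tumors and 8.95 to 14.6 CPM in C3-/- tumors. Its groups overlapped, and its difference of 0.54 ± 0.22 (log2, SE, with an unadjusted p of 0.0315) ran from 0.37 without C3-/- replicate 1 to 0.66 without WT replicate 1 when single tumors were left out. The unadjusted p then ran from 0.02 to 0.104 and was above 0.05 in 5 of these 8 fits.

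Gm17709, a processed pseudogene inside the span of Banp on the opposite strand, ran from 1.88 to 6.93 CPM in WT tumors and from 2.67 to 11.3 CPM in C3-/- tumors (log2 fold change 0.61, 95% interval -0.43 to 1.64). Whether it overlaps an exon of Banp was not examined, and with strand not stated, reads of any shared exon bases could not be told apart. Zfp469, between Banp and Zfpm1, had a log2 fold change of -0.20 (95% interval -0.74 to 0.34). Trhr2, the next gene after Gm45353, had too few reads to be tested, with 0, 1, 0 and 4 counts in the WT tumors and 6, 3, 2 and 8 counts in the C3-/- tumors, which overlap. Gm20681, a noncoding gene between Trhr2 and Zc3h18, stayed below 1 CPM in all tumors (log2 fold change 0.69, 95% interval -0.46 to 1.84). Klhdc4, Rnf166 and Piezo1 also overlap other models, of which Ctu2 beside Piezo1 was the most abundant (26.1 to 44.6 CPM).

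BANP protein binds an element whose core is CTCGCGAG, a palindrome that reads alike on both strands and that was searched in RefSeq promoter windows (GRCm38.p6) from 250 bases before to 50 bases after each gene start. The core stood in 302 of 32851 windows, or 0.919%. None of the 8 windows of the 6 members in that table held it (Klhdc4, Zc3h18, Cyba, Mvd, Rnf166 and Piezo1), nor did any of the 27 window genes with an entry. Of the 252 genes of the count table with the core, 227 were tested, 110 were higher and 117 lower in C3-/- tumors, and the median log2 fold change was 0.00. None passed an adjusted p of 0.05 in edgeR, and 11 (4.85%) had an unadjusted p below 0.05, beside 5.12% of the 11461 tested genes with a window and no core.
The 5 with the smallest p are shown as examples of the element in its setting, with the core in capitals and the plus or minus strand of GRCm38.p6 as the gene reads.
Mettl16 (chr11:74770808-74770837, plus): aagtcaaaagtCTCGCGAGagtagtctgtc
Mogs (chr6:83115258-83115287, plus): aggtcgtcagcCTCGCGAGccagcgccgtt
Uhrf2 (chr19:30030430-30030459, plus): cccgcgtggatCTCGCGAGatccgggttgg
Mmaa (chr8:79294912-79294933, minus): tgctgcgcggcCTCGCGAGggt
Rnf149 (chr1:39577358-39577387, minus): ctcggcggtctCTCGCGAGccgccgccgtc
Mettl16, an RNA methyltransferase gene, stood at 22.6 to 25.2 CPM in WT tumors and 31.0 to 40.2 CPM in C3-/- tumors (log2 fold change 0.58 ± 0.13, SE), and Mogs, a glucosidase gene of glycoprotein processing, at 43.5 to 51.2 and 63.6 to 85.1 CPM (0.56 ± 0.13). Uhrf2 (0.40 ± 0.12) and Mmaa (0.70 ± 0.21) were also higher in all C3-/- tumors, whereas Rnf149 was lower in all of them (-0.36 ± 0.12). Over the 227 tested genes with the core, 4 (1.76%) had all C3-/- tumors above all WT tumors and 3 (1.32%) had all of them below, beside 2.28% and 1.45% of all tested genes. A match describes these letters and not a bound site.

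The genes that work with the neighbors were read from lists. Of 18 genes of mevalonate and cholesterol synthesis, the pathway of Mvd, 17 had lower values in C3-/- tumors and 1, Ggps1, a higher one, with a median log2 fold change of -0.22 beside 0.00, and 50.0% above 0, for all tested genes. None passed an adjusted p of 0.05, and 2 (11.1%) had an unadjusted p below 0.05, beside 5.11% of all tested genes: Hsd17b7 (-0.52 ± 0.19, SE) and Lss (-0.33 ± 0.14), each with overlapping groups. Hmgcs1, the synthase of an early step, stood at -0.22 ± 0.14. The median ran from -0.30 to -0.13 when single tumors were left out, and it was -0.22 without both C3-/- replicate 1 and WT replicate 3.

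Of 9 genes of nuclear RNA cap binding and exosome targeting, which work with Zc3h18, 1, Ncbp2, had an unadjusted p below 0.05, beside 5.11% of all tested genes (3.03% on the higher and 2.07% on the lower side). Ncbp2 encodes the cap-binding subunit and stood at 23.9 to 28.7 CPM in WT tumors and at 34.6 to 44.6 CPM in C3-/- tumors (log2 fold change 0.61 ± 0.13, SE, unadjusted p = 0.000799, edgeR adjusted p = 0.933, DESeq2 adjusted p = 0.0653). Of the 9 genes, 2 (22.2%), Ncbp2 among them, had all C3-/- tumors above all WT tumors, beside 2.28% of all tested genes. Its partner Ncbp1 stood at 0.07 ± 0.12, and the list's median was 0.07. Among 11 amino acid transport genes related to Slc7a5, 2 had an unadjusted p below 0.05, 1 on each side. The LAT1 partner Slc3a2 had a value of -0.12 ± 0.14, the cystine transporter Slc7a11 one of -0.59 ± 0.27 (unadjusted p = 0.0487) and Slc7a7 one of 0.33 ± 0.13 (unadjusted p = 0.0344), with a median of -0.04 for the list.

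Of the 12 NADPH oxidase genes listed with Cyba, 10 were tested and none had an unadjusted p below 0.05. Rac1, the most abundant by CPM, had a log2 fold change of -0.11 ± 0.11 (SE) and Cybc1 one of 0.05 ± 0.13, and Cybb, which pairs with p22phox, one of 0.19 ± 0.18. Of 6 mechanosensitive channel genes, 1, Trpc1, stood lower in all C3-/- tumors (7.02 to 10.9 against 11.8 to 14.3 CPM, log2 fold change -0.60 ± 0.19, unadjusted p = 0.00904, edgeR adjusted p = 0.96). Of all tested genes, 1.45% were lower in all C3-/- tumors and 2.07% had an unadjusted p below 0.05 on the lower side. Piezo2 had a value of -0.14 ± 0.20, and the median of the 6 was -0.17. The 3 ubiquitin ligases related to Rnf166 (Rnf114 0.09 ± 0.10, Rnf138 -0.02 ± 0.15, Rnf125 -0.26 ± 0.49) and the 9 genes of p53 and its targets (Trp53 0.11 ± 0.13, Cux1 0.05 ± 0.14) held no unadjusted p below 0.05. Over all 7 lists, 6 of 66 tested genes (9.09%) had an unadjusted p below 0.05, beside 5.11% of all tested genes.

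**Figure D4:**
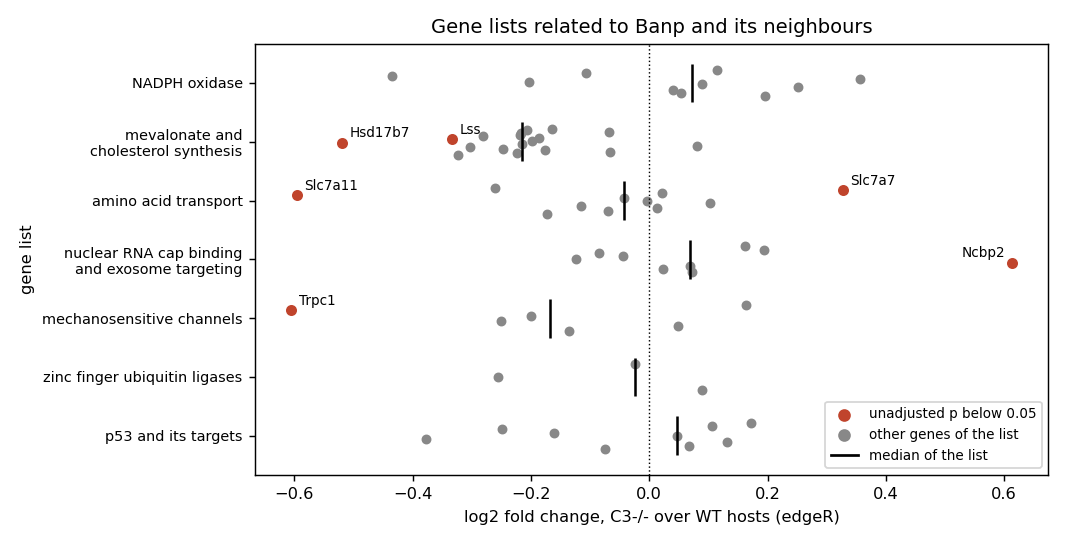
Log2 fold change of C3-/- over WT tumors (x axis) for each tested gene of 7 lists (rows), with a line at the list's median; red points have an unadjusted p below 0.05. The mevalonate and cholesterol genes lie left of 0 except for 1, and the other lists lie on both sides.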

How the data were processed

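Tumor RNA was poly-A selected and sequenced. The authors deposited 1 table with raw counts per gene, FPKM values per gene and a size-factor-normalized signal (not used in any test), together with fold changes and p-values of their own comparison, which were not used. The study's methods name STAR and HTSeq, and the submitters' processing notes name HISAT2 2.0.5 and DESeq2 1.20.0. The build is mm39. Here the deposited counts were filtered (filterByExpr, minimum count 10), TMM-scaled and tested with edgeR 4.0.16 (glmQLFit, glmQLFTest, Benjamini-Hochberg, 4 WT against 4 C3-/- tumors) in R 4.3.3. DESeq2 1.42.0, limma 3.58.1, other filters and left-out tumors were alternatives. The code was tested on simulated data. CPM deviations used a prior count of 2. Repeats were searched with blastn 2.17.0. P-values measure the spread between tumors of separate mice. The counts rest on the deposited gene models, which differ in places from GENCODE vM39. That annotation was used here for the exons and sequence of Gm45353 and for the models set beside them. Promoter sequences are from RefSeq (GRCm38.p6), where Banp, Slc7a5 and Gm45353 have no entry.

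The 9 members and all gene lists were chosen with earlier results of these data known. Genes were named by rule: the members, window genes with an unadjusted p below 0.05 or adjoining Banp or Gm45353, the 3 genes most like each of these by within-genotype r, list members with an unadjusted p below 0.05 or else the 2 most abundant, and the 5 promoter-core genes with the smallest p. Other names (Hmgcs1, Ggps1, Ncbp1, Slc3a2, Cybb, Piezo2, Rnf125, Ctu2) serve as context. In the mevalonate list, 2 genes are not reported here, and its counts and medians leave them out. The deviations of same-numbered tumors had r from -0.36 to 0.59 over 4 pairs, below 0.1 in 2 of them, so the numbers were not taken to pair the tumors.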

Additional observations from a re-analysis of the deposited data

Results flagged for a closer look

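In 5 of 58 groups of 4 tumors (29 named genes), 1 tumor stood apart by Dixon's criterion, where chance gives about 2.9. Cyba was at 309 CPM in C3-/- replicate 1 against 139 to 145 CPM in the other 3 C3-/- tumors. Piezo1 was at 78.9 CPM in WT replicate 3 against 162 to 188 CPM, and at 89.2 CPM in C3-/- replicate 1 against 164 to 182 CPM. Mogs was at 85.1 CPM in C3-/- replicate 1 against 63.6 to 65.9 CPM. Slc7a7 was at 38.9 CPM in C3-/- replicate 3 against 37.2 to 37.4 CPM, a gap of small size. In the Cyba, Piezo1 and Mogs groups the tumor concerned was 1 of the 2 with high short-model and low long-model medians, whose part in these values was not tested.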

How the results depend on the processing

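No neighbor, promoter-core gene or list gene passed an adjusted p of 0.05 in edgeR with DESeq2 size factors, without the count filter, with 10 counts in every tumor, with robust fitting or with a replicate block, in DESeq2 or limma-voom, or with any tumor left out. The count over all genes was 16 in DESeq2, of which 2 in the window were Banp and Gm45353, chosen by these calls, 0 in each other fit on all 8 tumors and 0 to 4 with 1 tumor left out (4, all acinar genes, without C3-/- replicate 1). With the replicate block 0 genes were called, Cyba stood at -0.046 and Piezo1 at 0.007, and Slc7a5 had an unadjusted p of 0.0823. The near-zero values of 4 neighbors changed sign: Cyba (-0.049 in limma-voom, -0.18 without both C3-/- replicate 1 and WT replicate 3, -0.36 to 0.21 with 1 tumor left out), Piezo1 (0.009 in limma-voom, -0.24 to 0.16), Klhdc4 (-0.11 to 0.23) and Rnf166 (-0.205 to 0.053); the cause was not tested. Banp ran from 0.83 to 1.19 and Gm45353 from 1.49 to 1.98 over all alternatives. Widening or narrowing the window changed no call. Gm45353 rests on 13 to 98 counts a tumor, and 23 window genes had too few reads to test.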

Other observations

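Among other window genes, chosen after their values were seen, Trappc2l (r = 0.99 with the short-minus-long median over 8 tumors), Aprt (r = 0.98) and Galns (r = 0.97) were also highest in WT replicate 3 and C3-/- replicate 1 within their groups, and Zcchc14 (r = -0.96) was lowest there. Aprt, which salvages adenine, stood at 323 CPM in WT replicate 3 and 350 CPM in C3-/- replicate 1 against 163 to 222 CPM in the other 6 tumors. Map1lc3b, with a model of 7517 bases, had r = 0.91, and the pseudogene Gm17709, with one of 1096 bases, had r = -0.93.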
